A study of Mus musculus with 8 samples.

Results

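The 10 genes described here mark macrophages or act in them: Csf1r, Csf1, Adgre1 (formerly Emr1), Cd68, Lyz1, Lyz2, Laptm5, Gpnmb, Mpeg1 and Spi1. They were chosen by name, with earlier results of these data known. Every probe set (a group of short probes for 1 transcript) of the array with 1 of these as its single annotated gene was taken, which gave 22 of 45101 probe sets, for 10 of the 18193 genes named on the array. RNA came from gallbladders of female B6.V-lepob obese mice, which make no functional leptin, so that both treatments share this deficiency. One group received recombinant mouse leptin by daily intraperitoneal injection (5 µg per g body weight) for 4 weeks, and the other received saline over the same time; all had chow, were fasted overnight and were 12 weeks old when the gallbladder was removed. Each treatment had 12 mice, whose gallbladders were combined by 3 into 4 pools, each measured on 1 Affymetrix mouse array; leptin pools are numbered 5 to 8 and saline pools 1 to 4. The comparison asks which gallbladder transcripts leptin alters. Since whole organs were pooled, more cells of a type and more RNA per cell cannot be told apart.

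Macrophages depend on the cytokine CSF1, which signals through the receptor tyrosine kinase CSF1R and keeps them alive and dividing. The transcription factor PU.1, encoded by Spi1, sets up the myeloid programme. Macrophages that arise through it carry the surface protein F4/80 (Adgre1) and a large lysosomal compartment. That compartment is rich in CD68, lysozyme, LAPTM5, the pore-forming protein of Mpeg1 and, in some states, GPNMB. In obesity macrophages gather in fat tissue, and leptin itself acts on leukocytes as well as on the brain. Several of the 10 genes are also used elsewhere: Spi1 and Lyz2 are also used by neutrophils, Spi1 and Laptm5 by B cells, Csf1 by fibroblasts and endothelium, Gpnmb by melanocytes and Lyz1 by Paneth cells of the intestine.

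Lyz1 and Lyz2 lie side by side on chromosome 10 and are near copies, a point on which their array values turn. Their promoters, 250 bases before to 50 after the start (RefSeq, GRCm38.p6, minus strand), are shown with capitals at bases that do not match the other copy in a global alignment; Lyz1 is at chr10:117292819-117293118 and Lyz2 at chr10:117282223-117282522.
Lyz1: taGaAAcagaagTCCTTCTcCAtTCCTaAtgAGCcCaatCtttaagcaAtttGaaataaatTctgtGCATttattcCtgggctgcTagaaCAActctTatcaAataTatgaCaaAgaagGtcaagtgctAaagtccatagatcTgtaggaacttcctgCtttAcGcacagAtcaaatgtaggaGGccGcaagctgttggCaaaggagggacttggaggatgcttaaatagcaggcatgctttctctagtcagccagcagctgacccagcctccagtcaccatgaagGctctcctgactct
Lyz2: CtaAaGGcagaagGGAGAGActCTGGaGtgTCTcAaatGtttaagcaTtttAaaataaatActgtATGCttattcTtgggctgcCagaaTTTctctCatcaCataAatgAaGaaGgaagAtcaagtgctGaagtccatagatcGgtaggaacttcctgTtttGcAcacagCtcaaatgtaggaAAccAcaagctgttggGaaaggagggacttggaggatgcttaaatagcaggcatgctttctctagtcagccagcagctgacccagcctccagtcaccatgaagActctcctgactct
Of 298 aligned bases 249 were identical (83.6%), with 4 gap columns, and the longest identical run, which crosses the start, had 86 bases.

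Sequences were examined for 7 of the 10 genes. Csf1r, Adgre1 and Spi1 were not among them, so the motif counts here do not cover these genes. The sequences of Cd68 and Laptm5 are shown because they alone among the 7 hold GAGGAA, a core bound by PU.1, on either strand. Capitals mark that motif or its reverse complement. Cd68 is at chr11:69666121-69666420 (minus strand) and Laptm5 at chr4:130913066-130913365 (plus strand).
Cd68: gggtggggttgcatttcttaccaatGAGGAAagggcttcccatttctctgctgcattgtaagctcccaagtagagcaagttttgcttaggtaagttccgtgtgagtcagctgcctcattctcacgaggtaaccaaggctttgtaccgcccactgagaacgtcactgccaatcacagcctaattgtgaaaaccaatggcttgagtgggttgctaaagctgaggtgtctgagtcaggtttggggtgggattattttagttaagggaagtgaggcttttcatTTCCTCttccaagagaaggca
Laptm5: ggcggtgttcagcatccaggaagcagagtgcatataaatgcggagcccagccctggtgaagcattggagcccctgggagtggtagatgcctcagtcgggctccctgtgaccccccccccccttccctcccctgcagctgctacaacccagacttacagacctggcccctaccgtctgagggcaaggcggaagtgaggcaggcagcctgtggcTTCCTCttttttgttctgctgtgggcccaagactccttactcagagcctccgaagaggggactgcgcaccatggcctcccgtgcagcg
GAGGAA stood in 28.3% of all 32851 such promoter windows, and in 2 of the 7 here, 2 times in Cd68 and 1 time in Laptm5. The E-box CACGTG, a palindrome read by MITF and related factors of lysosomal genes, was in 7.15% of all windows and in 0 of the 7. The windows of Lyz1, Lyz2, Mpeg1, Csf1 and Gpnmb held neither set of letters. The 2 motifs share no overlap with each other.

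Of the 10 genes, 7 rose with leptin and 0 fell. Laptm5 rose 3.52-fold, and Mpeg1, Csf1r, Lyz2, Lyz1 and Adgre1 rose between 2.03-fold and 2.20-fold. Other tested probe sets gave Laptm5 fitted folds of 2.01 (called) and 1.68 (not called), and Lyz1 1.29 and 1.08 (neither called). Those of Csf1r gave 1.96 and 1.43, both called. The Lyz1 probe set that rose may also read Lyz2. Cd68 rose 1.72-fold. The ligand gene Csf1, the regulator gene Spi1 and Gpnmb did not pass the test, with fitted folds of 1.07, 1.10 and 1.18. Each gene was read from its brightest probe set, and a call means an adjusted p under 0.05 from limma on log2(signal + 8.2), adjusted by Benjamini-Hochberg across the 22519 probe sets that were tested; log2 fold changes are leptin minus saline and n = 4 pools a treatment throughout. By this rule 8.27% of the 11719 tested genes were called, 4.29% higher and 3.98% lower. All 10 genes passed the filter on dim probe sets, a signal of 83.3 from the mean log2 value of the 8 pools. Their brightest probe sets had a signal of at least 116 in every pool. The median log2 fold change of the 10 was 1.03, beside 0.020 over all tested genes. The leptin pools all lay above the saline pools in 7 of the 10 genes, as they did in 8.45% of tested genes. Since the 10 were chosen with earlier results of these data known, these shares only describe them.

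**Figure D1:**
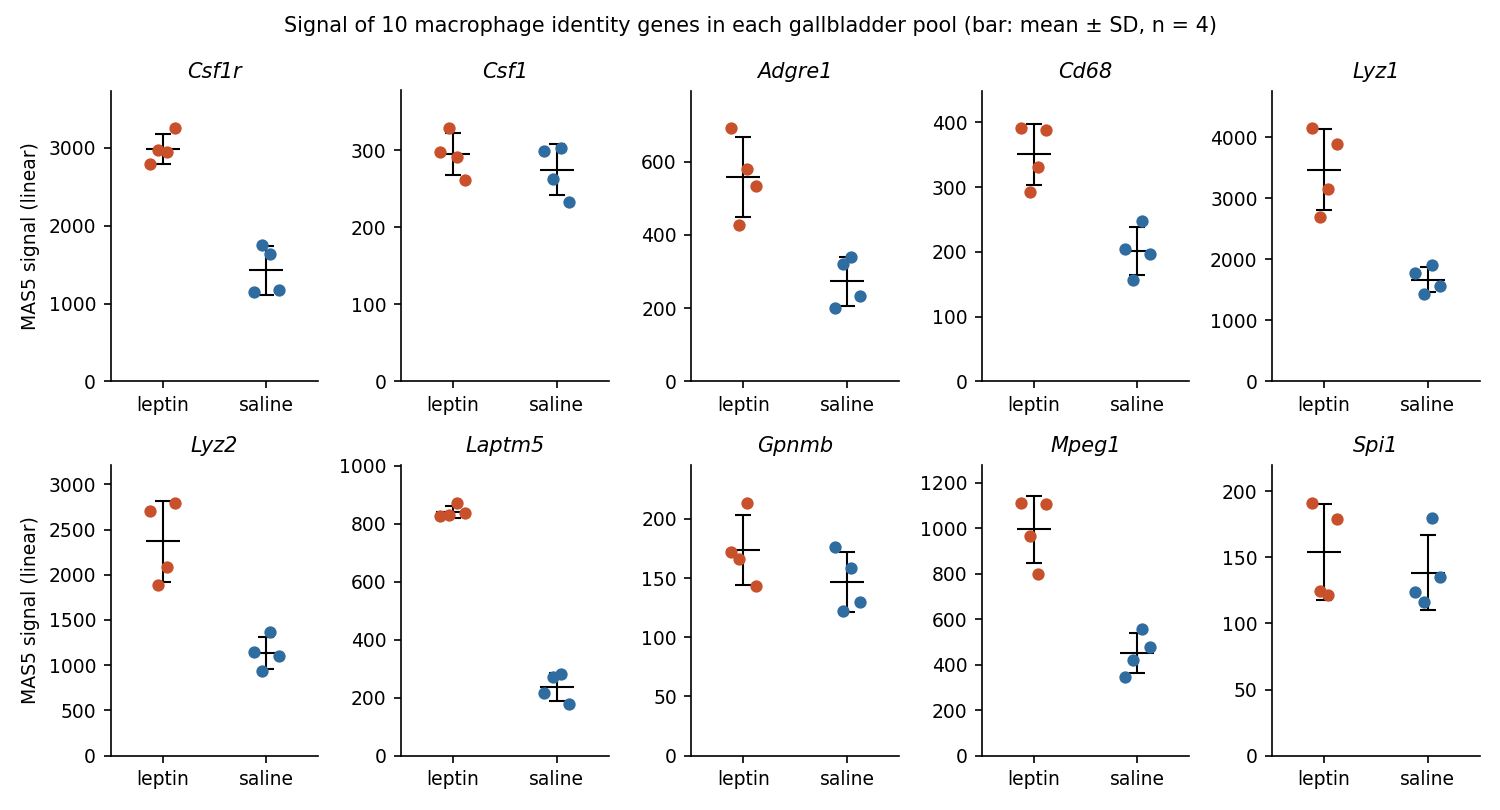
MAS5 signal (linear scale) of each gene's brightest probe set in every pool, leptin pools on the left and saline pools on the right of each panel, with the mean and SD (n = 4). The 4 leptin points lie above all 4 saline points in 7 panels and mix with them in those of Csf1, Gpnmb and Spi1.

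The arrays themselves were similar in kind but not alike. The mean absolute log2 difference between any 2 arrays lay between 0.27 and 0.48. The median signal was 94.0 to 107 in leptin pools and 77.8 to 87.3 in saline pools (exact permutation p = 0.0286, the smallest this test allows; adjusted 0.0571 over 4 measures). The 3' to 5' signal ratio of actin, which rises as RNA degrades, was 1.67 to 2.17 with leptin and 1.50 to 1.68 with saline (exact permutation p = 0.0571, adjusted 0.0762), while that of GAPDH was 0.791 to 0.846 with leptin and 0.774 to 0.870 with saline (exact permutation p = 0.857). With the actin ratio as a covariate, 3 of the 10 genes kept their call (Laptm5, Csf1r and Lyz1) and Mpeg1, Lyz2, Adgre1 and Cd68 lost theirs, with log2 fold changes of 0.79, 0.82, 0.63 and 0.64; the part of RNA quality in the result was not tested further. Gallbladder epithelium was plainly present, with keratin genes bright in every pool, and so were liver transcripts: the signals of the 4 hepatocyte markers on the array summed to 58839 to 66219 in leptin pools and 43801 to 68903 in saline pools.

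The receptor of the CSF1 axis rose. Csf1r had a signal of 2789, 2973, 2942 and 3250 in leptin pools 5 to 8, against 1150, 1751, 1633 and 1170 in saline pools 1 to 4. Every leptin pool was above every saline pool, and the leptin pools lay closer together (2988 ± 192, SD) than the saline pools (1426 ± 311). This is a log2 fold change of 1.09 ± 0.14 (SE; limma adjusted p = 0.00064). A second probe set gave a nearly equal value, 0.97 ± 0.17 (limma adjusted p = 0.0046). The remaining one, 1423593_a_at, moved less, at 0.52 ± 0.14 (limma adjusted p = 0.0386), with 494 ± 61.3 in leptin pools and 341 ± 27.9 in saline pools. The gap of 0.57 between the brightest and this probe set did not overlap between treatments (exact permutation p = 0.0286, adjusted 0.129 over 18 pairs of probe sets). It did not pass after adjustment, but 0.0286 is the smallest p this test allows. No pair of the 18 had a lower adjusted value, so the test cannot decide here.

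The ligand gene did not pass the test. Csf1 had a signal of 298, 328, 291 and 262 in leptin pools 5 to 8, against 300, 263, 303 and 233 in saline pools 1 to 4. The treatments overlapped, with 2 saline pools above 3 of the leptin pools. The log2 fold change was 0.10 ± 0.15 (SE; limma adjusted p = 0.716), and its 95% interval ran from -0.21 to 0.42, which is 0.862-fold to 1.34-fold. The other 3 Csf1 probe sets were at 0.14, 0.29 and -0.074, none called. Taken within each pool at the brightest probe sets, the leptin effect on Csf1r exceeded that on Csf1 by 0.98 ± 0.19 (SE) on the log2 scale. The 4 leptin values of this difference (3.15 to 3.59) lay above the 4 saline values (1.91 to 2.70, exact permutation p = 0.0286, the smallest possible, adjusted 0.0515 over 45 pairs of genes). The difference did not pass after adjustment, but no pair of the 45 had a lower adjusted value, so the test cannot decide here. Of the 21 pairs of a called and an uncalled gene, 17 did not overlap, this one included. That count is a description, since the pairs were formed by calls made in these same pools.

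The regulator PU.1 gave no call. Spi1 had a signal of 191, 125, 121 and 179 in leptin pools 5 to 8, against 124, 116, 179 and 135 in saline pools 1 to 4. Leptin 5 and 8 and saline 3 were high, and the rest lay together. The log2 fold change was 0.14 ± 0.22 (SE; limma adjusted p = 0.749), with a 95% interval of -0.34 to 0.61, so a rise of up to 1.53-fold lies within it. Its sign also depended on the scaling: it was -0.062, -0.11 and -0.028 with quantile, median and loess scaling. Spi1 has only this 1 probe set here.

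The surface marker F4/80 rose. Adgre1 had a signal of 690, 426, 580 and 533 in leptin pools 5 to 8, against 200, 319, 339 and 234 in saline pools 1 to 4. The lowest leptin pool, leptin 6, was still above the highest saline pool, saline 3. On the log2 scale it rose by 1.02 ± 0.19 (SE; limma adjusted p = 0.0082).

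Mpeg1 and Cd68, both of the phagocyte's endosomal and lysosomal compartment, rose. Mpeg1, which encodes the pore-forming perforin-2, had a signal of 1113, 965, 801 and 1106 in leptin pools 5 to 8, against 347, 421, 557 and 479 in saline pools 1 to 4. No leptin pool came near the saline range, and the log2 fold change was 1.14 ± 0.16 (SE; limma adjusted p = 0.0012). Cd68, a glycoprotein of late endosomes and lysosomes, had 391, 292, 331 and 388 in leptin pools 5 to 8, against 204, 157, 247 and 197 in saline pools 1 to 4. The pools separated, with the smallest fold of the 7 risers: the log2 fold change was 0.78 ± 0.17 (SE; limma adjusted p = 0.0162). The call on Cd68 was lost without leptin 8 (limma adjusted p = 0.0521), without saline 2 (0.0527) and with median centring (0.0539).

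Laptm5, a lysosomal membrane protein of blood-forming lineages that restrains antigen receptor levels in lymphocytes, had the highest fold of the 10 genes at its brightest probe set, 1436905_x_at. Probe sets with the ending _x_at hold some probes that also match other transcripts, and leaving such probe sets out gave Laptm5 a log2 fold change of 1.01. At this probe set the signal was 828, 829, 873 and 839 in leptin pools 5 to 8, against 215, 273, 281 and 179 in saline pools 1 to 4. The leptin pools were tightly grouped (842 ± 21.1, SD) and far above the saline pools (237 ± 48.3). The log2 fold change was 1.82 ± 0.15 (SE; limma adjusted p = 1.6e-05), the 78th highest of 22519 tested probe sets. Other Laptm5 probe sets gave smaller values: 1.01 ± 0.16 (limma adjusted p = 0.0026) at 1426025_s_at and 0.75 ± 0.21 (limma adjusted p = 0.0515, not called) at 1417721_s_at, where saline 3 (336) lay inside the leptin range of 320 to 389. The brightest exceeded these by 0.81 and 1.07 with no overlap between treatments (exact permutation p = 0.0286 each, adjusted 0.129 over 18 pairs). The remaining 2 Laptm5 probe sets were too dim to be tested.

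Against the other 6 risers, the brightest Laptm5 probe set showed the larger leptin effect in all 6 pairs, by 0.68 to 1.03 on the log2 scale with no overlap, which is a description, since Laptm5 was singled out for its fold. Read at 1426025_s_at instead, Laptm5 stood at 2.01-fold, within the range of the other risers. Which of its probe sets reads Laptm5 RNA best was not tested. Among those 6, 13 of 15 pairs overlapped between treatments. The 2 that did not were Lyz2 and Lyz1 against Cd68, by 0.26 each.

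Gpnmb, a glycoprotein of macrophages, osteoclasts and melanocytes that is abundant in lipid-laden macrophages, gave no call. Its signal was 172, 166, 214 and 144 in leptin pools 5 to 8, against 176, 122, 158 and 130 in saline pools 1 to 4. Leptin 7 was the highest, but saline 1 exceeded the other 3 leptin pools. The log2 fold change was 0.23 ± 0.19 (SE; limma adjusted p = 0.498), with a 95% interval of -0.18 to 0.65, or 0.880-fold to 1.57-fold, and it was -0.016 with median centring. A second Gpnmb probe set lay under the background signal of 46.0 in all 8 pools.

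**Figure D2:**
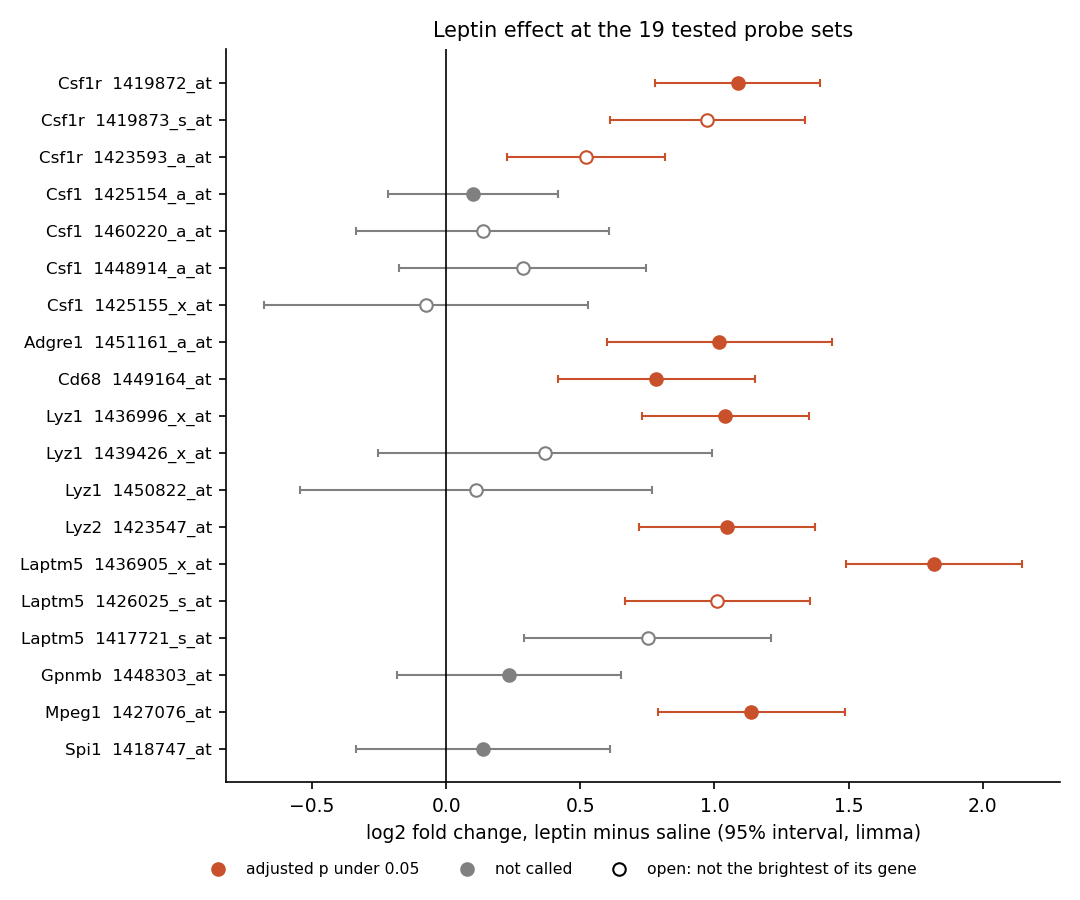
Log2 fold change, leptin minus saline, with its 95% interval from limma for the 19 tested probe sets, filled where the probe set is the brightest of its gene and orange where called. In all 10 were called, all higher; for Csf1r, Laptm5 and Lyz1 the probe sets of 1 gene spread widely, and the 4 of Csf1 all have intervals that cross 0.

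At the level of probe sets, 10 of the 19 tested were called higher and 0 lower, where 6.93% of all tested probe sets were called, 3.54% higher and 3.39% lower. Across all tested probe sets, 8.12% had every leptin pool above every saline pool. For 5 of the 7 risers every tested probe set was called, but Adgre1, Cd68, Lyz2 and Mpeg1 have only 1 each. Of the risers with several tested probe sets, Csf1r had all of them called, and Laptm5 and Lyz1 did not.

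The lysozyme genes need their probe sets read side by side. Lyz2, lysozyme M of macrophages and neutrophils, had a signal of 2700, 1891, 2088 and 2796 in leptin pools 5 to 8, against 1143, 938, 1370 and 1100 in saline pools 1 to 4. All leptin pools were above all saline pools (log2 fold change 1.05 ± 0.15, SE; limma adjusted p = 0.0013). Lyz1, lysozyme P, had 4143, 2696, 3153 and 3886 in leptin pools 5 to 8, against 1772, 1435, 1902 and 1565 in saline pools 1 to 4 at its brightest probe set, 1436996_x_at. The log2 fold change was 1.04 ± 0.14 (SE; limma adjusted p = 0.00093).

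The brightest Lyz1 probe set followed that of Lyz2 pool by pool. Their log2 difference stayed between -0.63 and -0.47 in all 8 pools, and their leptin effects differed by 0.0058 (exact permutation p = 0.886, adjusted 0.886 over 18 pairs). The other 2 Lyz1 probe sets did not follow. At 1450822_at the signal was 85.3, 88.2, 126 and 96.0 in leptin pools 5 to 8, against 146, 116, 59.6 and 63.6 in saline pools 1 to 4, so the treatments overlapped fully. Its log2 fold change was 0.11 ± 0.30 (SE; limma adjusted p = 0.863), with a 95% interval of -0.54 to 0.77. At 1439426_x_at leptin 5 (2386) and leptin 8 (2070) were high, and leptin 6 (1050) and leptin 7 (779) lay within or below the saline range (933 to 1329), for a log2 fold change of 0.37 ± 0.29 (SE; limma adjusted p = 0.473). With its ending _x_at, 1436996_x_at may read Lyz2 RNA too, and reads of the copies cannot be told apart in it. With Lyz1 read from its brightest probe set without that ending, a choice made after the values were seen, 6 of the 10 genes rose.

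**Figure D3:**
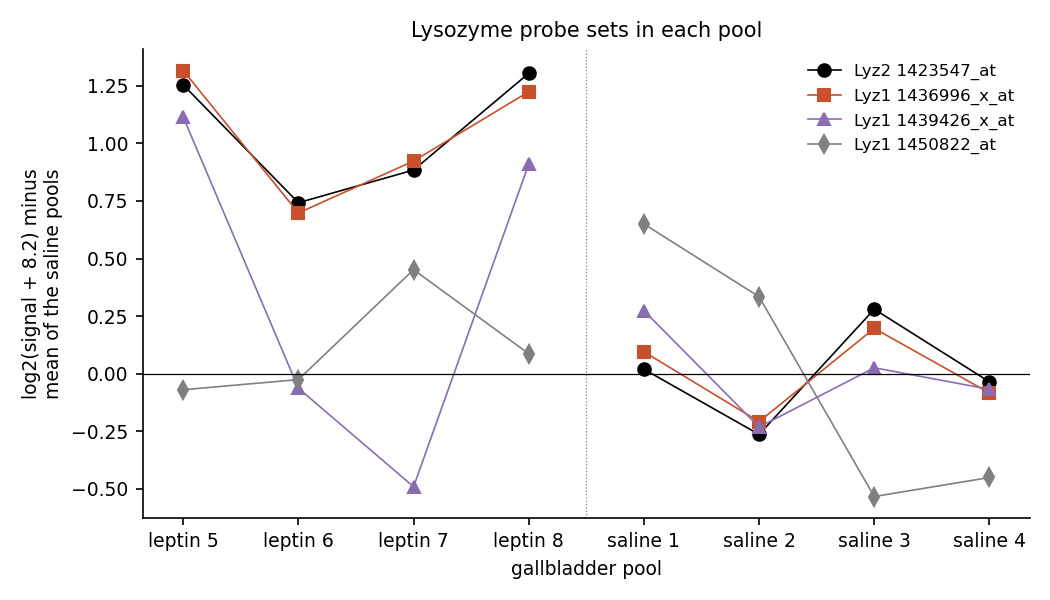
Log2(signal + 8.2) of the Lyz2 probe set and the 3 Lyz1 probe sets in each pool, minus the mean of that probe set's saline pools; lines only link the points of 1 probe set and the pools have no order. Lyz2 and 1436996_x_at run together in all pools, 1439426_x_at is low in leptin 6 and 7, and 1450822_at shows no separation of treatments.

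Within each treatment the pools were ordered by these genes as follows. Saline 3 was the highest saline pool in 8 of the 10 genes and in 6 of the 7 risers. Leptin 5 was the highest leptin pool in 5 of the 10, and leptin 6 the lowest in 4, all of them risers. Averaged over the 10 genes after centring each on its mean, the log2 value was 0.56, 0.27, 0.36 and 0.49 in leptin pools 5 to 8, against -0.49, -0.48, -0.16 and -0.54 in saline pools 1 to 4. How often each pool was highest or lowest over all tested genes was not counted, so these counts only describe the 10. Lyz1 and Lyz2 entered them separately, though 1436996_x_at may read both. Saline 3 also had the highest median signal of the saline arrays, 87.3. The part of this in its high values was not tested.

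Other receptors of the colony-stimulating factor family rose beside Csf1r. Of 6 tested genes of a list of CSF ligands and receptors, 4 were called higher and 0 lower, with a median log2 fold change of 1.17; the list holds Csf1r and Csf1. Csf3r, the receptor of the neutrophil growth factor, averaged 348 in leptin pools and 101 in saline pools (log2 fold change 1.78 ± 0.26, SE; limma adjusted p = 0.0014). Csf2rb, the shared signalling chain of the GM-CSF receptor, averaged 296 in leptin pools and 122 in saline pools (1.25 ± 0.20; limma adjusted p = 0.0027); its near copy Csf2rb2 may share probes with it. Csf2rb2 had a mean saline signal of 79.15, under the filter's 83.3, and passed it only through its leptin pools. With the actin covariate, Csf1r alone of the 4 called genes kept its call.

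Spi1 belongs to a list of transcription factors of the myeloid lineage. Of 12 tested, 1 was called higher and 0 lower, a share near the 8.27% of all tested genes that were called. The median was 0.21, but -0.042 with median centring and -0.033 with the actin covariate. Maf, a factor of tissue macrophages, averaged 650 in leptin pools and 377 in saline pools (0.78 ± 0.18, SE; limma adjusted p = 0.0237), a call that was lost without leptin 6, saline 1 or saline 2 (adjusted p up to 0.0768). Klf4, which monocytes need but epithelium also expresses, was at -0.61 ± 0.18 (limma adjusted p = 0.0578), and Cebpa, used by myeloid cells, fat cells and liver, at 0.60 ± 0.18 (limma adjusted p = 0.0642). Klf4 passed without leptin 5 or saline 4 (adjusted p down to 0.0345), and Cebpa without leptin 7 or saline 3 (down to 0.0292).

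Markers of resident tissue macrophages rose in part. Of 11 tested, 6 were called higher and 0 lower, with a median of 0.79; leaving out 1 pool gave 4 to 6, with 4 without leptin 6 or saline 4, and the actin covariate gave 3. The complement gene C1qa averaged 1112 in leptin pools and 393 in saline pools (1.50 ± 0.16, SE; limma adjusted p = 0.00012), and C1qc 946 in leptin pools and 395 in saline pools (1.26 ± 0.20; limma adjusted p = 0.0031). The mannose receptor gene Mrc1 averaged 820 in leptin pools and 396 in saline pools (1.05 ± 0.16; limma adjusted p = 0.0022). Under the actin covariate C1qa kept its call, and C1qc (limma adjusted p = 0.108) and Mrc1 (0.0921) did not. Cx3cr1, among the 6 called, had a mean saline signal of 60.5 and passed the filter of 83.3 only through its leptin pools. Aif1, too dim to be tested, had 51.8 to 221 in leptin pools and 24.4 to 45.6 in saline pools. Timd4, Marco and Siglec1, also untested, overlapped between treatments. Of 8 monocyte markers tested, 2 were called higher, with a median of 0.35. They were Chil3, a chitinase-like protein, at 4.47 ± 0.39 (limma adjusted p = 1.9e-05), and the integrin gene Itgam, at 1.53 ± 0.21 (limma adjusted p = 0.00087). Itgam had a mean saline signal of 62.15, under the filter's 83.3, and passed it only through its leptin pools. The endotoxin co-receptor Cd14 was at 0.46 ± 0.13 (limma adjusted p = 0.0566) and passed without saline 4 (0.0114).

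The list for lipid-associated macrophages held a gene called lower, and the list for lysosomes in general held genes called in both directions. Of 10 tested lipid-associated macrophage genes, 0 were called higher and 1 lower, with a median of -0.17; fat cells express several of them. The number called lower was 4 with median centring (median -0.42), 2 with the actin covariate and 0 to 3 without 1 pool. Cd36, a fatty acid transporter, averaged 1627 in leptin pools and 2286 in saline pools (-0.49 ± 0.14, SE; limma adjusted p = 0.0472), a call that held only when saline 4 was the pool left out (otherwise up to an adjusted p of 0.131). The proton pump subunit gene Atp6v0d2 was at 0.92 ± 0.26 (limma adjusted p = 0.0506) and passed without saline 3 (0.0137), and Fabp5 was at 0.47 ± 0.14 (limma adjusted p = 0.0651) and passed without saline 1 (0.0231). Of 14 lysosomal genes tested, 1 was called higher and 1 lower, and the median was 0.024; with median centring 4 were lower and the median was -0.23. The one called higher was Ctss, a cathepsin of antigen-presenting cells, which averaged 2506 in leptin pools and 856 in saline pools (1.54 ± 0.17; limma adjusted p = 0.00021). Asah1, acid ceramidase, was lower (-0.46 ± 0.11; limma adjusted p = 0.0226), a call lost without leptin 6, leptin 8, saline 2 or saline 4 (adjusted p up to 0.0788). Hexa was at 0.29 ± 0.12 (limma adjusted p = 0.149).

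Genes that leukocytes share, macrophages included, were also higher. All 10 tested genes of a pan-leukocyte list were called higher (7 with the actin covariate), with a median of 1.50, and their summed signal over 12 genes was 6794 to 7802 in leptin pools and 1922 to 2655 in saline pools. The signalling adaptor Tyrobp averaged 1026 in leptin pools and 272 in saline pools (1.89 ± 0.13, SE; limma adjusted p = 3.1e-06), and the CD45 gene Ptprc 964 in leptin pools and 196 in saline pools (2.28 ± 0.17; limma adjusted p = 4.4e-06). The actin-binding Coro1a was at 2.61 ± 0.21 (limma adjusted p = 1.1e-05). Averaged over the 10 after centring, saline 3 was again the highest saline pool, at -0.59, with the others between -1.05 and -0.75.

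Cell types that share single members with macrophages gave these values. Of 6 neutrophil markers tested 3 were called higher (median 1.89), with a summed signal of the 10 on the array of 3800 to 6515 in leptin pools and 808 to 1336 in saline pools; Camp and Cxcr2 lay under background in every pool. S100a8 was at 3.07 ± 0.20 (SE; limma adjusted p = 1.9e-06), S100a9 at 2.87 ± 0.24 and Ltf at 2.90 ± 0.29. Of 3 B cell markers tested 2 were called higher (median 1.02; summed signal of 7 genes 970 to 1207 in leptin pools and 284 to 489 in saline pools): Ms4a1, at 1.36 ± 0.16 (limma adjusted p = 0.0003), and Cd22, at 1.02 ± 0.29 (limma adjusted p = 0.0496), whose call held only when saline 3 was the pool left out (otherwise up to an adjusted p of 0.122). Blk was at 0.80 ± 0.32 (limma adjusted p = 0.151). The filter left out Cd79a, with 122 to 168 in leptin pools and 3.1 to 11 in saline pools. It also left out Cd79b, with 142 to 242 in leptin pools and 26 to 47.1 in saline pools. Pax5 and Cr2, untested as well, overlapped between treatments. Of 2 dendritic cell markers, Itgax, an integrin that macrophages also carry, rose by 1.90 ± 0.24 (limma adjusted p = 0.00053), and Zbtb46 was at 0.85 ± 0.27 (limma adjusted p = 0.0806); the summed signal of 7 such genes was 669 to 906 in leptin pools and 279 to 421 in saline pools, with Ccr7 under background in every pool. Itgax, Zbtb46, Blk, Mmp9 and Mmp8 had mean saline signals of 69.35, 72.1, 65.0, 78.4 and 73.8, under the filter's 83.3. They passed it only through their leptin pools, and the counts and medians of these lists include them. The part of these cell types in the rise of the macrophage genes was not tested.

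For Lyz1, the 1 tested Paneth cell marker, Mmp7, which gallbladder epithelium may also express, was lower with leptin, with a mean signal of 5151 in leptin pools and 7940 in saline pools (-0.61 ± 0.11, SE; limma adjusted p = 0.0072), a call lost with the actin covariate (limma adjusted p = 0.129); Itln1 lay under background in all pools and the 5 genes summed to 5245 to 5626 in leptin pools and 7206 to 10156 in saline pools. For Gpnmb, 0 of 3 melanocyte markers were called: Dct was at -0.41 ± 0.23, Tyr at 0.31 ± 0.25 and Pmel at 0.0089 ± 0.39 (limma adjusted p from 0.323 to 0.992). Their sum with the other 2 was 454 to 531 in leptin pools and 465 to 688 in saline pools. For Csf1, 0 of 6 fibroblast and 0 of 6 endothelial markers were called. The fibroblast median was 0.32 (0.067 with median centring), and the endothelial one 0.30 (0.051 with median centring and 0.0042 with the actin covariate). Of 6 markers of gallbladder epithelium (4 keratins, Cdh1 and Epcam), 3 were called lower, all keratins, and 0 higher (median -0.37; 0 lower with the actin covariate; summed signal 25638 to 29169 in leptin pools and 32668 to 40862 in saline pools).

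**Figure D4:**
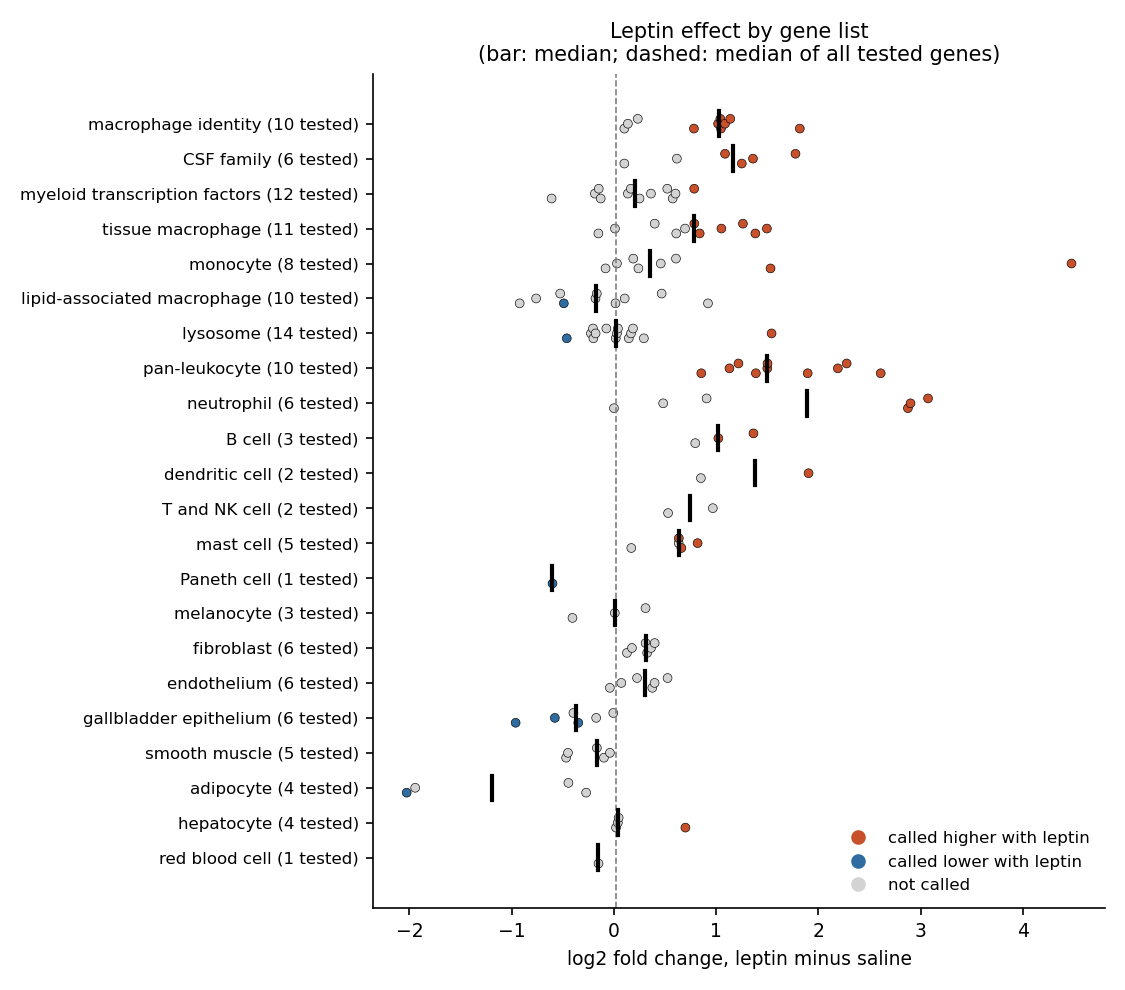
Log2 fold change, leptin minus saline, of every tested gene (points) in each list, with the list's median (bar) and the median of all 11719 tested genes (dashed line at 0.020). The 10 pan-leukocyte genes are all orange (called higher), 7 of the 10 macrophage identity genes are, and the medians of the lysosome and lipid-associated macrophage lists are 0.024 and -0.17.

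The remaining lists are given by their counts. Of 5 mast cell markers 3 were called higher (median 0.63; 0 to 2 when any 1 pool was left out), of 2 T and NK cell markers 0 (median 0.75), and of 5 smooth muscle markers 0 (median -0.17). Of 4 adipocyte markers 1 was lower (median -1.19, and -1.61 to -0.24 without 1 pool), and of 4 hepatocyte markers 1 was higher (median 0.042), which was Apoa1, a call lost without leptin 5, 6 or 8 or saline 1 or 4. The 1 red blood cell marker tested was at -0.16 and not called.

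The tested genes whose profile over the 8 pools lay nearest to that of 3 members were listed, by the root mean square difference of centred log2 values. For Csf1r they were Arhgdib (0.12), which is on the pan-leukocyte list, the NADPH oxidase subunit gene Ncf1 (0.15) and the interferon-induced GTPase gene Gbp7 (0.15), all called higher, with log2 fold changes of 1.22, 1.12 and 1.05. For Csf1 they were Tbcd (0.054), Dok4 (0.065) and Tanc1 (0.065), and for Spi1 they were Apeh (0.099), 1600014C10Rik (0.11) and Armc9 (0.12), none of which was called. The profile includes the difference between treatments, so a near gene has a similar fold by the way it was picked.

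Across 22 alternative settings, including the 8 that left out 1 pool each, Csf1r and Laptm5 kept their call in all 22. Adgre1, Lyz2 and Mpeg1 lost it in 1, under the actin covariate. Lyz1 lost it in 2, the mean of its 3 probe sets and the brightest without the ending _x_at, and Cd68 in 5, of which 1 is the stricter threshold of 0.01. None of Csf1, Spi1 and Gpnmb was called under any setting in which it was tested.

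**Figure D5:**
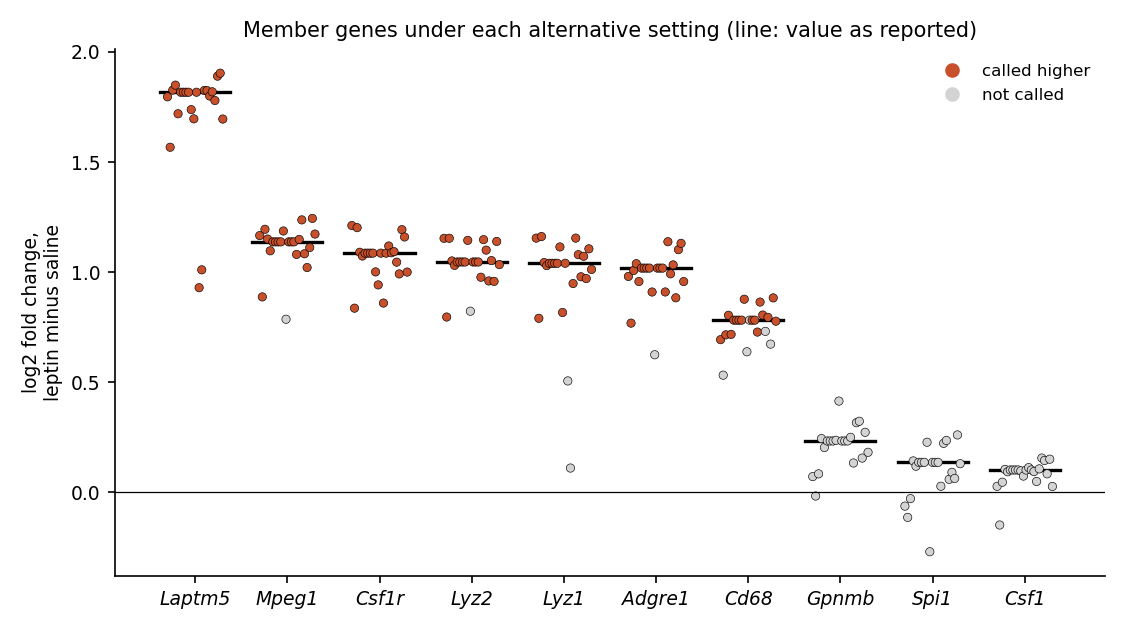
Log2 fold change, leptin minus saline, of each gene under every alternative setting (points; orange where called higher) with the reported value (line). The points of Laptm5, Mpeg1, Csf1r, Lyz2 and Adgre1 stay above 0.6, while those of Csf1, Spi1 and Gpnmb lie between -0.27 and 0.41 and are never called.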

How the data were processed

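The authors deposited 1 intensity per probe set and array, on a linear scale, made with MAS5 per the submitters' processing notes (the series' design text also names the array maker's operating software). The 2% trimmed means of the 8 arrays lay between 250.001 and 250.002, so a change common to all transcripts would not be seen. The MAS5 version, present or absent flags and dates of scanning were not used here, so no batch was examined; the number of arrays limits precision.

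Signals were scaled to the same trimmed mean and taken to log2(signal + 8.2), the pseudocount being the 10th percentile of all values; this understates folds at low signal. Apart from 64 controls, the 22519 probe sets at or above the median log2 value were fitted with limma 3.58.1 in R 4.3.3 (lmFit, eBayes with trend), two-sided. That median, taken of means over all 8 pools, was a signal of 83.3. A gene dim in 1 treatment could so pass through the other. The fit was also run on simulated data with independent normal noise in each probe set and no differences between whole arrays. These arrays do differ, and no result here rests on that run. Of the probe sets, 34958 had 1 gene symbol, 932 several and 9211 none here; 34754 were updated through Entrez identifiers to GRCm38.p6. A gene was read from its brightest probe set. Background, 46.0, is the 95th percentile of 27 control probe sets for bacterial sequences. Exact permutation tests are two-sided over 70 assignments of pools and cannot go below 0.0286. Pools are separate samples per the labels.

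The members and gene lists were chosen with earlier results of these data known. There were 22 lists with 190 symbols; 172 had a probe set and 132 were tested. Named genes are all members, up to 3 of each list by lowest p (all where under 3 were tested, and none in some lists with few calls), and the 3 genes nearest in profile to Csf1r, Csf1 and Spi1. Genes are also named where their passing or failing of the filter, or a signal under background, is described. Promoters were aligned with Biopython 1.88 (match 2, mismatch -1, gap open -4, extend -0.5). Alternatives were quantile, median and cyclic loess scaling, pseudocounts of 1 and 32, no filter or the 75th percentile, no trend, a robust variance model, array weights, the actin ratio as covariate, a threshold of 0.01, the mean of a gene's probe sets and each pool left out. One more, added after the data were seen, leaves out probe sets ending in _x_at.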

Additional observations from a re-analysis of the deposited data

Results flagged for a closer look

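Of 44 sets of 4 pools (22 probe sets in 2 treatments), 1 had a pool far from the others, where chance alone gives about 1 in 20. At the second Gpnmb probe set, 1439345_at, saline 1 had a signal of 16.6 against 3.8 to 4.3 in the other saline pools. All of these lie under the background of 46.0, as do the leptin pools (2.9 to 33.5), and the probe set was not tested.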

How the results depend on the processing

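The count of 7 genes called higher was 6 or 7 in every setting but the actin 3' to 5' ratio as a covariate, which gave 3, and no member was called lower in any. It was 6 to 7 without 1 pool. The number of all probe sets called, 1561 (798 higher, 763 lower), moved more: it was 3992 with median centring (406 higher, 3586 lower), 654 with the actin covariate, 507 at an adjusted p of 0.01, and 884 to 1431 without 1 pool (1028, 884 and 985 without leptin 5, 6 and 8, and 892 and 943 without saline 2 and 4). Median centring gave a median log2 fold change of all tested probe sets of -0.21, beside 0.039 as reported, and 0.78 for the 10 members, beside 1.03. Signs turned for genes never called: Spi1 was -0.062 with quantile scaling, -0.11 with median centring, -0.028 with cyclic loess and -0.27 with the actin covariate, and under median centring Csf1 was -0.15 and Gpnmb -0.016. With the actin covariate, adjusted p was 0.0606 for Mpeg1 (log2 fold change 0.79), 0.0558 for Lyz2 (0.82), 0.215 for Adgre1 (0.63) and 0.207 for Cd68 (0.64); the cause was not tested. Lyz1 was 0.51 (adjusted p = 0.0875) as the mean of its probe sets. The count over all probe sets has no value where genes are read from other probe sets. No paired analysis was possible because the replicate numbers 1 to 4 and 5 to 8 are not shared between treatments.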
